A study of Mus musculus with 6 samples.

Results

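Genes that make, sense and break down prostaglandins and thromboxane were followed in whole-lung RNA of mice at postnatal day 15. The members are 10 genes taken by name (Ptgs2, Ptges, Ptgds, Hpgds, Ptgis, Tbxas1, Hpgd, Ptgdr2, Ptger2 and Ptger4) out of 18193 genes measured, with every probe set whose platform annotation gives that gene alone, which came to 16 probe sets of 45037. The arrays were 6 Affymetrix whole-genome mouse arrays, 3 from lungs with the genotype label of wild-type controls and 3 from lungs with the genotype label Foxa2-/-, which the design text calls littermates. The lung epithelium uses Foxa2, a transcription factor with a forkhead domain, and the design text asks about its targets in type 2 inflammation and in the excess of mucus-making goblet cells. All 6 samples, the Foxa2-/- ones included, carry the strain label SPC(+)Cre(-) with doxycycline (Dox) from embryonic day 6.5 to 12.5. That label gives no Cre-positive genotype to the Foxa2-/- samples, so the groups rest on the genotype label.

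Prostanoids are lipid signals made on demand from arachidonic acid. A cyclooxygenase (Ptgs1 or Ptgs2) makes the unstable intermediate prostaglandin H2, and a terminal synthase then decides the product: Ptgds and Hpgds make prostaglandin D2, Ptges makes prostaglandin E2, Ptgis makes prostacyclin, and Tbxas1 makes thromboxane A2. The products act near their source through G protein-coupled receptors, and Hpgd, an oxidising enzyme abundant in lung, inactivates those that pass through. In allergic airways prostaglandin D2 is known as a signal that draws in eosinophils, type 2 T cells and innate lymphoid cells through Ptgdr2, thromboxane A2 contracts airway and vascular smooth muscle and activates platelets, and prostaglandin E2 and prostacyclin are known to relax airway or vascular muscle and to restrain inflammation.

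Of the 10 genes, Ptgds and Tbxas1 alone passed the test between genotypes. Their promoters are shown for that reason, as 250 bases before and 50 bases after the start of the gene in the RefSeq table of build GRCm38.p6, which had an entry for 9 of the 10 members. Ptgds lies on chr2:25469700-25469999 (minus strand) and Tbxas1 on chr6:38918736-38919035 (plus strand), each printed 5′ to 3′ on its own strand. Capitals mark matches to TGANTCA, to TGTTTA, the core bound by forkhead factors, and to TATAAA, the TATA box. TGANTCA, with N as any base, is a looser form of the motif of AP-1 and NF-E2 factors, which has C or G at N.
Ptgds: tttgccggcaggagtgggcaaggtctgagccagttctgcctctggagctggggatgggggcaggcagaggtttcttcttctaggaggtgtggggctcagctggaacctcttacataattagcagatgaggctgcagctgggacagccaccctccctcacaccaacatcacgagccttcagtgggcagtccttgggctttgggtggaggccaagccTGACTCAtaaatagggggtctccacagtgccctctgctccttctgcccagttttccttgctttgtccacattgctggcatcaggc
Tbxas1: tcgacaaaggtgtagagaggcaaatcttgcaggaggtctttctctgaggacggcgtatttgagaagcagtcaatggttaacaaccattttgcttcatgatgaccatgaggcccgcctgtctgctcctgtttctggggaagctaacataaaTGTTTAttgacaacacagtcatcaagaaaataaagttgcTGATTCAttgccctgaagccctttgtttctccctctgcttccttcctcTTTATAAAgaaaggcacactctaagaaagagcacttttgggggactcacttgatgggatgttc
Both strands were searched, positions were counted from the start with no base 0, and some motifs overlap one another. TGANTCA was found as TGACTCA at position -35 in Ptgds and as TGATTCA at position -61 in Tbxas1, and in no other of the 9 member promoters. Of all 32851 promoters of that length in the table, 7.81% hold this looser form. The match in Tbxas1 has T at N, so only that in Ptgds is the AP-1 and NF-E2 motif itself. The forkhead core TGTTTA was found at position -100 in Tbxas1 (13.4% of all promoters), and the longer forkhead motif TNTTTAC in that of Hpgds but in neither of the 2 printed (12.4%). Tbxas1 also held the ETS and PU.1 motif AGGAAG at positions -24 and -20 on the other strand (35.4% of all promoters), and TATAAA at position -11, with an overlapping match on the other strand (13.6%). Members that did not pass held these as well, AGGAAG in Hpgd, Hpgds and Ptgs2, and TATAAA in Hpgd. The GATA motif AGATAA (11.2%) was in none of the 9 and the cyclic AMP response motif ACGTCA (7.51%) was in Ptgs2. A match is a run of letters, and no binding was measured here.

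Foxa2 itself read 10.28, 10.56 and 10.28 in control replicates 1 to 3 and 7.72, 5.38 and 5.13 in Foxa2-/- replicates 1 to 3 (log2). Every Foxa2-/- array lay below every control. The difference of -4.30 (SE 0.66) missed the threshold, with a limma adjusted p of 0.0599. Array medians were 7.85 to 7.91. RNA integrity was read as the excess of the 3-prime over the 5-prime control probe set, which for Gapdh ran from 1.06 to 1.23 (log2) on control arrays and from 0.91 to 0.97 on Foxa2-/- arrays. For Actb it ran from 0.46 to 0.65 and from 0.43 to 0.47, so those groups overlapped. The Gapdh reading moves with genotype in every comparison below, and its part in them was not tested. Control replicate 2 and Foxa2-/- replicates 2 and 3 share the first number in their sample titles, whose meaning is not given, and this was treated as a possible batch. Defining lung markers were bright on all arrays, with control means of 14.40 for Sftpc (surfactant protein C), 14.40 for Scgb1a1 (club cells) and 12.10 for Pecam1 (endothelium).

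Foxa2-/- lungs had more RNA of the prostaglandin D2 synthase Ptgds and of the thromboxane synthase Tbxas1, about 3-fold each, and the other 8 genes did not pass. Ptgds was 3.28-fold higher (95% interval 2.59 to 4.15) and Tbxas1 2.98-fold higher (2.14 to 4.15), in each case with all 3 Foxa2-/- arrays above all 3 controls. So 2 of 10 members rose and 0 fell at a limma adjusted p under 0.05 over all genes, where 0.473% of all 18193 genes rose and 0.0989% fell. At an unadjusted p under 0.05 there were 3 of 10, beside 12.3% of all genes. The median log2 difference of the 10 was 0.16, with 6 positive, beside 0.0053 over all genes. Every Foxa2-/- array lay above all controls for 3 members (10.8% of all genes) and below them for 1 (8.73%), so 4 of 10 did not overlap where 19.6% of all genes did not. Both calls depended on single arrays. Ptgds had an adjusted p of 0.129 without control replicate 1, 0.0904 without control replicate 2, 0.0704 without Foxa2-/- replicate 2 and 0.0748 without Foxa2-/- replicate 3, and Tbxas1 passed only without Foxa2-/- replicate 1 (0.0364), with 0.0761 to 0.174 without each of the others. Whole-lung RNA cannot tell a gain of cells of one type from more RNA per cell.

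**Figure D1:**
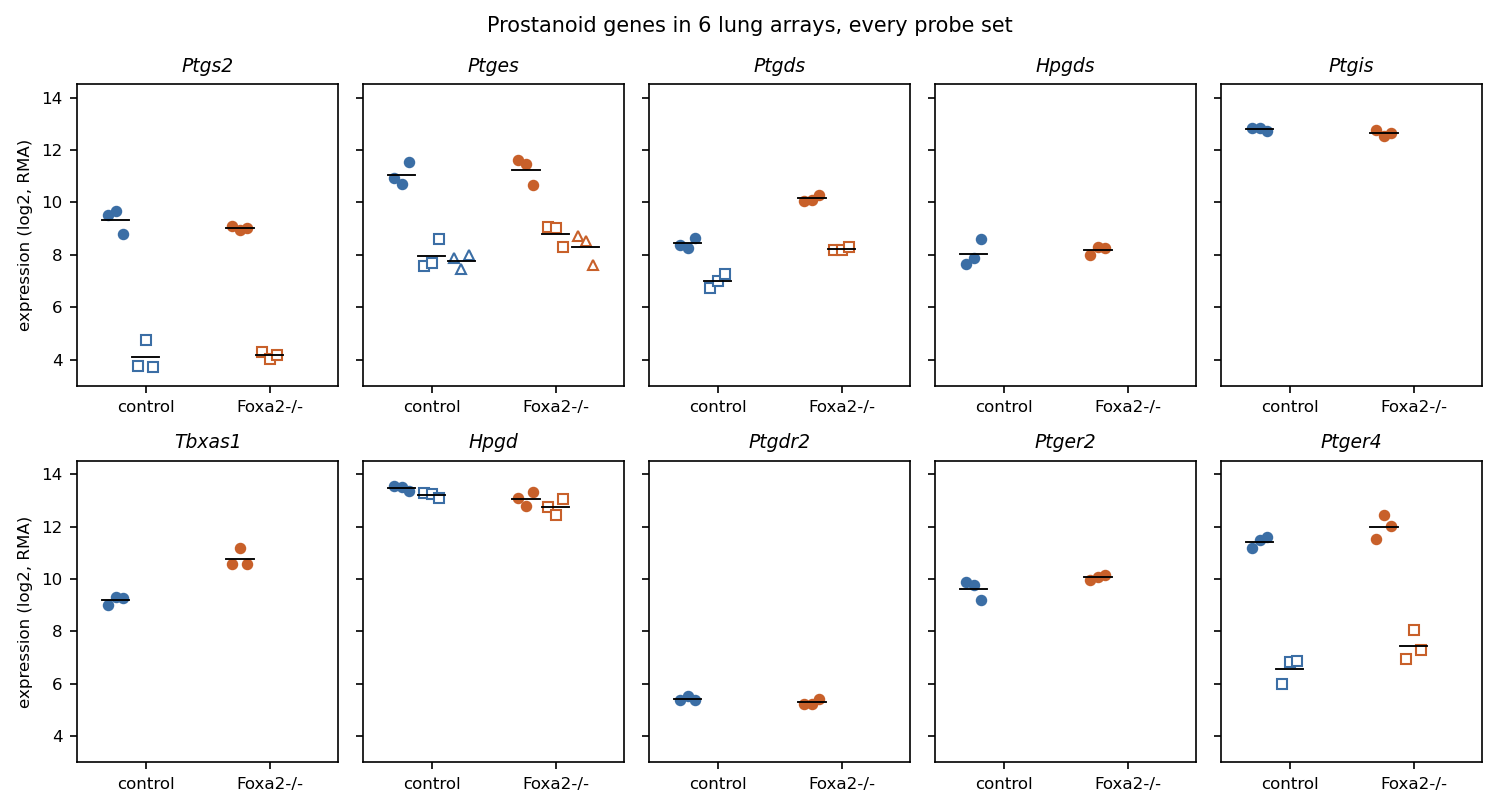
Expression (log2, RMA) of the 10 prostanoid genes in 3 control (blue) and 3 Foxa2-/- (orange) lungs, in replicate order from left to right, with a line at each mean; filled circles are the brightest probe set of a gene and open symbols its other probe sets. The Foxa2-/- values of Ptgds (10.07 to 10.29) and Tbxas1 (10.56 to 11.16) stand clear of the controls (up to 8.66 and 9.33), while those of Ptgs2, Ptges, Hpgds, Ptgis and Ptgdr2 overlap them.

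Ptgds, the lipocalin-type prostaglandin D2 synthase, is a small secreted protein that also carries lipophilic ligands. Its brighter probe set, 1423859_a_at, read 8.39, 8.27 and 8.66 in control replicates 1 to 3 and 10.07, 10.09 and 10.29 in Foxa2-/- replicates 1 to 3 (log2). The 3 Foxa2-/- lungs lay close together (SD 0.12) and 1.41 log2 units separated the lowest of them from the highest control. The difference was 1.71 (SE 0.14, limma adjusted p = 0.019), the 9th smallest p of the 18193 genes. Its other probe set, 1423860_at, read 6.75, 7.01 and 7.27 in controls and 8.19, 8.19 and 8.29 in Foxa2-/- lungs. Here too every Foxa2-/- array lay above all controls, as for 9.73% of all probe sets. That probe set differed by 1.22 (SE 0.16), with a limma adjusted p of 0.0716 over the 45037 probe sets, of which 0.0799% rose. The 2 probe sets are annotated to the same sequence record, so they do not count as independent measurements. Among the 3 arrays that share a title number, which hold 1 control, the difference was 1.92 (SE 0.16, adjusted p = 0.214).

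The other synthase of prostaglandin D2 and the receptor it uses on type 2 cells did not pass. Hpgds, the hematopoietic prostaglandin D2 synthase of mast cells, type 2 T cells and antigen-presenting cells, read 7.64, 7.90 and 8.59 in controls and 7.99, 8.28 and 8.25 in Foxa2-/- lungs. The Foxa2-/- values lay inside the range of the controls. The difference of 0.13 had a 95% interval of -0.47 to 0.74 (adjusted p = 0.862). That interval includes rises of up to 0.74 and leaves out larger ones, such as that of Ptgds (1.71). Without control replicate 1 its sign turned (-0.07). The 9 mast cell and basophil markers averaged 7.10 to 7.35 in controls and 7.27 to 7.59 in Foxa2-/- lungs. In limma 0 of them passed (2 at an unadjusted p under 0.05, beside 12.3% of all genes). The mast cell proteases Mcpt4 (0.60) and Cma1 (0.65) lay above all controls (2 of 9, beside 10.8% of all genes), and the others overlapped. Mcpt4 was dim in controls (5.17 to 5.78), and so were the defining Fcer1a and Ms4a2, with control means of 3.62 and 4.92. Ptgdr2, the prostaglandin D2 receptor of type 2 T cells, eosinophils and basophils, read 5.36, 5.55 and 5.39 in controls and 5.23, 5.24 and 5.41 in Foxa2-/- lungs. Those values lie below the 25th percentile of each array (5.69 to 5.78), a range in which RMA values cannot tell weak expression from none, so no difference is given. The groups overlapped. Among the cells that carry this receptor, the eosinophil and type 2 lymphocyte lists had higher means on every Foxa2-/- array, while the mast cell and basophil list overlapped. The mean level of the 6 eosinophil markers was 5.95 to 7.02 in controls and 7.95 to 9.04 in Foxa2-/- lungs. Of these, 3 rose (Prg2, Epx and Prg3, all granule proteins). Above all controls lay 4 of 6 (10.8% of all genes), and the receptors Ccr3 and Il5ra overlapped. Prg3 was in the background range named above on every control array (4.59 to 5.18). Epx was in that range on control replicates 1 and 2 (5.58 and 5.02), so no size is given for either rise. The mean level of the 7 measured type 2 lymphocyte markers was 5.55 to 5.62 in controls and 5.92 to 6.97 in Foxa2-/- lungs. In limma 0 of them passed (3 at an unadjusted p under 0.05, beside 12.3% of all genes). The control means of this list lie in the background range named above. The cytokines Il4 and Il13 and the receptor Ccr8 lay above all controls (10.8% of all genes), and the other 4 (Gata3, Il17rb, Ccr4 and Il5) overlapped. Ccr8 was in the background range on every array (4.23 to 5.58), as was Il13 on the control arrays (5.21 to 5.44). Il4 was in that range on control replicates 1 and 2 (5.24 and 5.47). No size of difference is given for these 3 genes. Their part in the values of Ptgdr2 was not tested.

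Tbxas1, thromboxane synthase, is a cytochrome P450 enzyme known from platelets and macrophages. Its single probe set, 1416827_at, read 8.99, 9.33 and 9.26 in control replicates 1 to 3 and 10.56, 11.16 and 10.57 in Foxa2-/- replicates 1 to 3 (log2). Foxa2-/- replicate 2 was the highest, and 1.24 log2 units lay between the lowest Foxa2-/- array and the highest control. The difference was 1.57 (SE 0.20, limma adjusted p = 0.0406), at rank 64 of 18193 by p. The call ended with cyclic loess between arrays (1.59, adjusted p = 0.0534) and with the test over probe sets in place of genes (1.57, adjusted p = 0.0698). Among the 3 arrays that share a title number the difference was 1.54 (SE 0.31, adjusted p = 0.313).

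The means of the macrophage marker lists were higher on every Foxa2-/- array, though not for every gene, and the platelet list did not separate the groups. The mean level of 6 measured alveolar macrophage markers was 10.05 to 10.27 in controls and 10.73 to 11.15 in Foxa2-/- lungs. Itgax and Cd68 passed in limma, and 4 of 6 lay above all controls, beside 10.8% of all genes. Those 4 include Siglecf (1.58, adjusted p = 0.138) and Car4 (0.20, adjusted p = 0.553), which did not pass. Of the other 2, Krt79 differed by -0.37 (adjusted p = 0.646) and Marco by 0.18 (adjusted p = 0.788), and both overlapped the controls. The mean level of 6 monocyte and interstitial macrophage markers was 10.19 to 10.44 in controls and 10.76 to 11.49 in Foxa2-/- lungs. In limma 0 of 6 passed (5 at an unadjusted p under 0.05, beside 12.3% of all genes), and 5 of 6 lay above all controls, all but Cx3cr1. Foxa2-/- replicate 2 was the highest array in both lists and for Tbxas1, and also in the eosinophil, type 2 lymphocyte and dendritic cell lists. The 5 platelet and megakaryocyte markers averaged 8.95 to 9.11 in controls and 9.003 to 9.41 in Foxa2-/- lungs, with a median difference of 0.15 and 0 passing in limma (0 at an unadjusted p under 0.05). For Ptgds the Foxa2-/- order was another one, with replicate 3 highest. Replicate 3 was also the highest Foxa2-/- array in the mast cell and basophil, neutrophil, fibroblast and heart muscle lists, where the groups overlapped. The part of macrophage content in the rise of Tbxas1, or of any cell type in that of Ptgds, was not tested.

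**Figure D2:**
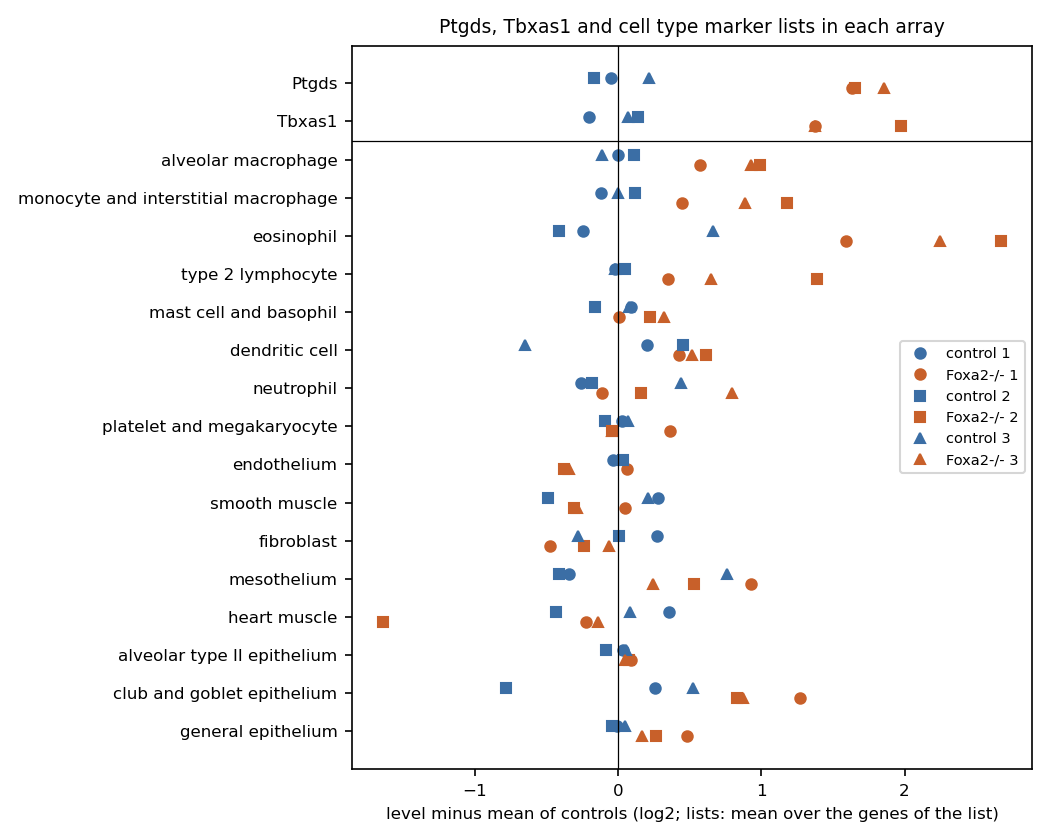
Levels of Ptgds, Tbxas1 and 16 cell type marker lists on each array, as the difference from the mean of the 3 controls (log2; for a list, the mean over its measured genes); blue is control, orange is Foxa2-/-, and the symbol gives the replicate. Ptgds, Tbxas1 and the macrophage, eosinophil, type 2 lymphocyte, club and goblet, and general epithelial lists have all 3 Foxa2-/- arrays to the right of the controls, and the other 10 lists overlap.

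The inducible cyclooxygenase and the synthases of prostaglandin E2 and prostacyclin did not pass. Ptgs2, the inducible cyclooxygenase, read 9.53, 9.68 and 8.79 in controls and 9.09, 8.97 and 9.03 in Foxa2-/- lungs. Foxa2-/- arrays lay within the controls, whose spread came from replicate 3. The difference was -0.31 (95% interval -0.87 to 0.26, adjusted p = 0.661), and it was -0.58 without control replicate 3 (adjusted p = 0.213), -0.13 without control replicate 2 (0.923) and -0.68 with the title number as a fixed block (0.308). Its other probe set, 1417263_at, was dim on every array, at 3.73 to 4.76, and gave no usable level. Ptges, the inducible prostaglandin E2 synthase, was represented by 3 probe sets that differ in size of difference. The dimmer ones are not annotated to the sequence record of the brightest. The brightest, 1439747_at, read 10.92, 10.69 and 11.55 in controls and 11.61, 11.45 and 10.66 in Foxa2-/- lungs, a difference of 0.19 (95% interval -0.58 to 0.95, adjusted p = 0.843) that ran from 0.0027 to 0.48 with single arrays left out. The dimmer 1449450_at differed by 0.84 (95% interval 0.05 to 1.63) and 1449449_at by 0.53 (-0.22 to 1.28), with adjusted p values of 0.437 and 0.62 over probe sets. All 3 put Foxa2-/- replicate 3 below replicates 1 and 2, and in all 3 the groups overlapped. Ptgis, the prostacyclin synthase of endothelium and smooth muscle, was bright and even, at 12.85, 12.84 and 12.72 in controls and 12.77, 12.52 and 12.66 in Foxa2-/- lungs (difference -0.16, 95% interval -0.43 to 0.12, adjusted p = 0.643). The intervals of Ptgs2 and Ptgis leave out a rise of 1 log2 unit, and so does that of the brightest Ptges probe set, while those of the other Ptges probe sets include it.

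Hpgd, 15-hydroxyprostaglandin dehydrogenase, which takes the first step in inactivating prostaglandins, was the one member with every Foxa2-/- array below every control. Its brighter probe set, 1419906_at, read 13.56, 13.51 and 13.36 in controls and 13.07, 12.80 and 13.31 in Foxa2-/- lungs (log2). Foxa2-/- replicate 3 lay only 0.05 below the lowest control. The difference of -0.42 (SE 0.16, 95% interval -0.80 to -0.04) had an unadjusted p of 0.034 and a limma adjusted p of 0.35, and so did not pass. The other probe set, 1419905_s_at, annotated to the same record, read 13.27, 13.25 and 13.07 in controls and 12.75, 12.46 and 13.06 in Foxa2-/- lungs, a difference of -0.44 (SE 0.18). Both lie near the top of the scale (highest value of any probe set 14.88), where RMA can compress differences. Leaving out single arrays gave differences of -0.54 to -0.29 for the brighter probe set. The 6 club and goblet cell markers averaged 10.43 to 11.73 in controls and 12.04 to 12.48 in Foxa2-/- lungs, and 0 passed in limma (3 at an unadjusted p under 0.05, beside 12.3% of all genes). Among them the club cell genes Cyp2f2 (-0.51) and Scgb3a2 (-0.25) lay below all controls, the mucus-related goblet cell genes Clca1 (3.50, or 2.10 without control replicate 2) and Agr2 (2.16) lay above them, and Scgb1a1 and Muc5ac overlapped. Their part in the values of Hpgd was not tested. The 4 measured alveolar type II markers averaged 13.56 to 13.70 in controls and 13.69 to 13.74 in Foxa2-/- lungs.

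The prostaglandin E2 receptors Ptger2 and Ptger4 both raise cyclic AMP. Ptger2 read 9.89, 9.78 and 9.20 in controls and 9.95, 10.09 and 10.15 in Foxa2-/- lungs. Every Foxa2-/- array lay above the controls, the lowest by 0.07. The difference was 0.44 (95% interval -0.03 to 0.91, adjusted p = 0.437) and 0.23 without control replicate 3, the lowest array (adjusted p = 0.666). Ptger4, which T cells and macrophages carry, read 11.18, 11.49 and 11.60 in controls and 11.52, 12.44 and 12.02 in Foxa2-/- lungs. Foxa2-/- replicate 1 fell among the controls and the other 2 lay above them. The difference was 0.57 (95% interval -0.02 to 1.16, adjusted p = 0.421), with 0.80 without Foxa2-/- replicate 1 (adjusted p = 0.128) and 0.35 without Foxa2-/- replicate 2 (0.607). Its dimmer probe set, 1421073_a_at, which is annotated to another sequence record, read 5.97, 6.82 and 6.88 in controls and 6.93, 8.06 and 7.28 in Foxa2-/- lungs. That probe set differed by 0.87 (SE 0.36, adjusted p = 0.462 over probe sets). As for Tbxas1, Foxa2-/- replicate 2 was the highest on both probe sets.

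The rest of the pathway was read from a list of 17 further genes, of which 14 had a probe set of their own. None of the 14 passed in limma (2 at an unadjusted p under 0.05, beside 12.3% of all genes), their median difference was -0.11, and their differences ran from -0.22 to 0.97. Every Foxa2-/- array lay above all controls for 2 of the 14 (10.8% of all genes) and below them for 1 (8.73%). Those shares are near those of all genes. Ptges3 shares its 2 probe sets with a pseudogene, and Ptgs1, the constitutive cyclooxygenase, and Akr1b3, a prostaglandin F synthase in mouse, were not analysed here, so total cyclooxygenase RNA is not described. Ptgir, the prostacyclin receptor, was the upper end of the range, at 8.002, 8.48 and 8.05 in controls and 8.87, 9.85 and 8.73 in Foxa2-/- lungs. All 3 Foxa2-/- arrays lay above the controls, with replicate 2 again the highest. The difference was 0.97 (SE 0.32, 95% interval 0.22 to 1.73, adjusted p = 0.28) and 0.62 without Foxa2-/- replicate 2 (adjusted p = 0.38). Ptgdr, the other prostaglandin D2 receptor, which raises cyclic AMP, was dim at 5.69, 5.42 and 5.76 in controls and 6.03, 5.89 and 5.91 in Foxa2-/- lungs (adjusted p = 0.393). On control replicates 1 and 2 it lay below the 25th percentile of the array (5.75 and 5.69), so no size of difference is given. Ptgr2, a reductase that acts after Hpgd in prostaglandin breakdown, lay below all controls by its brightest probe set, 11.38, 11.36 and 11.51 against 11.30, 11.32 and 11.26, a difference of -0.12 (SE 0.10, adjusted p = 0.683) whose sign turned with the mean of its probe sets. The other 11 genes, among them the arachidonate-releasing Pla2g4a, the uptake carrier Slco2a1 and the thromboxane receptor Tbxa2r, had groups that overlapped and adjusted p values above the threshold.

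**Figure D3:**
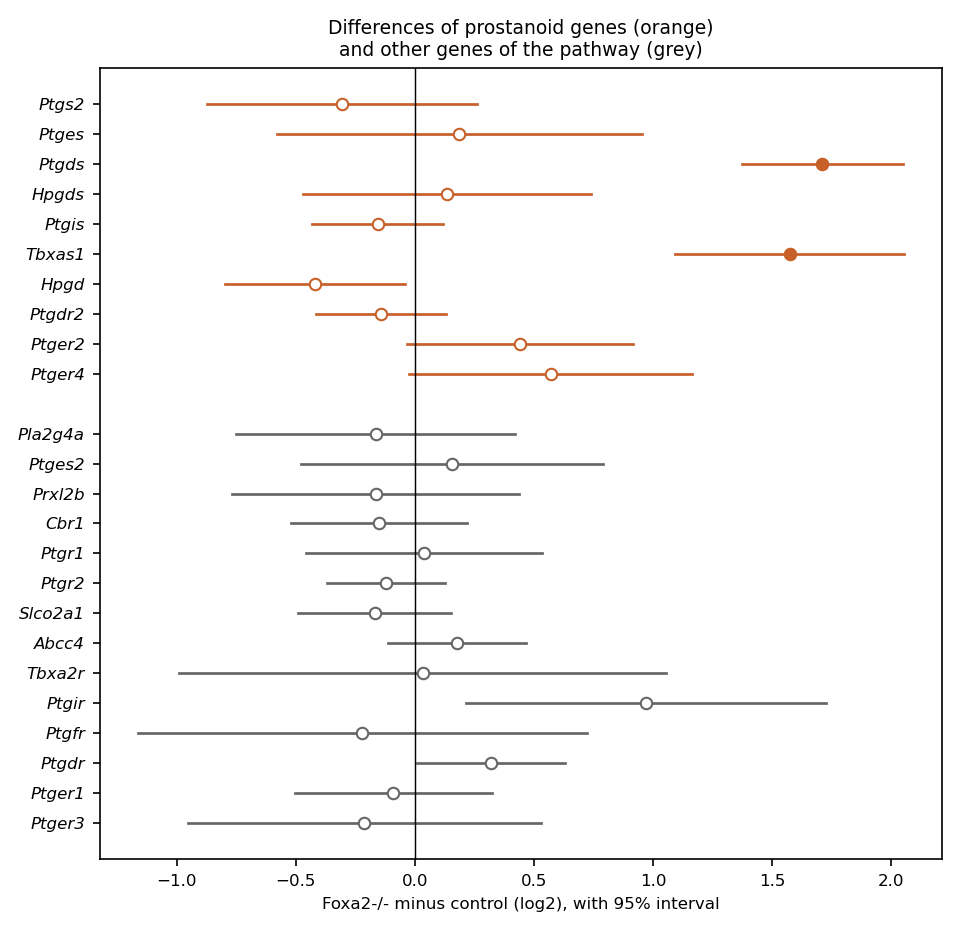
Log2 difference between Foxa2-/- and control lungs (3 arrays each) with its 95% interval for the 10 prostanoid genes (orange) and 14 other genes of the pathway (grey); filled symbols passed at an adjusted p under 0.05. Ptgds (1.71) and Tbxas1 (1.57) are the filled symbols, and of the other intervals those of Hpgd, Ptgir and Ptgdr leave out 0; Ptgdr2 lies in the background range, so its position is no measured difference.

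The genes whose pattern was nearest to that of Ptgds, by Pearson's r over the 6 arrays among 8674 genes brighter than the median, were Psmb10, Mt1, Tmem213, Scpep1 and Msrb1, with r of 0.988 to 0.994. Mt1, a metallothionein, read 11.81, 11.49 and 11.86 in controls and 12.85, 12.79 and 12.998 in Foxa2-/- lungs. Of the 5, Mt1, Tmem213 and Msrb1 passed. For Tbxas1, looked up after its values were seen, they were Man2b1 (a lysosomal mannosidase), AB124611, Pnpla7, Csf2rb and Mapkapk3, with r of 0.992 to 0.998. Csf2rb, the shared receptor chain for the cytokines GM-CSF, IL-3 and IL-5, read 10.25, 10.55 and 10.47 in controls and 11.79, 12.19 and 11.93 in Foxa2-/- lungs, with Foxa2-/- replicate 2 highest as in Tbxas1. All of these genes were picked by r and share the split between genotypes on the same 6 arrays. A like order of arrays follows from that pick, so r and the order are descriptions with no test.

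**Figure D4:**
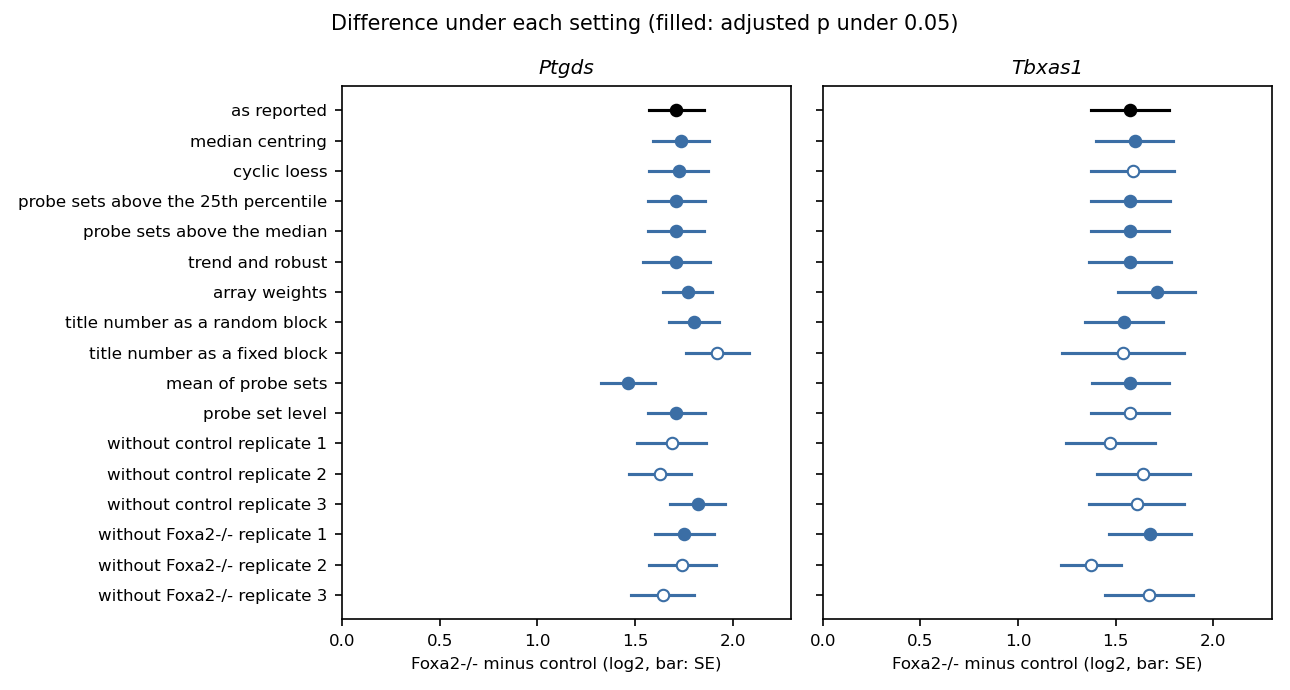
Log2 difference between Foxa2-/- and control lungs for Ptgds and Tbxas1 as reported (black) and under 16 other settings (blue), with bars of 1 SE; filled symbols have an adjusted p under 0.05. The differences stay between 1.46 and 1.92 for Ptgds and between 1.37 and 1.71 for Tbxas1, while 5 settings for Ptgds and 8 for Tbxas1 lie on the other side of the threshold.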

How the data were processed

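Total RNA of whole lung was labelled with biotin and hybridised to 6 arrays, 3 control and 3 Foxa2-/-. The deposited values are log2 expression per probe set, made by the authors with RMA per the submitters' processing notes (background correction, a common distribution for all arrays, summary over probes). RMA version and settings: not given in the sources used here. Values of 2.36 to 14.88 showed the log2 scale. RMA hides a general shift of expression and compresses differences at both ends of the scale. No depth exists for arrays, and 3 arrays per group limit the precision.

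Of 45101 probe sets, 64 Affymetrix controls were left out. In the platform annotation 34945 of the rest have 1 symbol, 932 several and 9160 none. For 34741 of the 34945 the Entrez identifier stands in the RefSeq table. A gene was represented by the brightest probe set that names it alone (mean of all arrays). The test was limma 3.58.1 under R 4.3.3 (lmFit, then eBayes; two-sided, no covariate), with Benjamini-Hochberg adjustment over 18193 genes or 45037 probe sets and a threshold of 0.05. On simulated data for this comparison over 18193 genes, 65.7% of 67 genes changed by 1 log2 unit, 89.6% of 67 by 2 and 100% of 66 by 3 were recovered, with 13 unchanged genes called. The simulated noise was normal and independent between arrays, with the variance that eBayes gave each gene, so it leaves out unequal spread of the groups. On the real arrays Foxa2 (-4.30) and Clca1 (3.50) did not pass, so these shares do not give the recovery here. Replicates are numbered in accession order, which pairs nothing, and since no label ties each array to its own animal, the p-values reflect spread among these arrays, part of which may be technical. No 2 arrays were identical. The members and lists were chosen with earlier results of these data known. Named genes were the 10 members, Foxa2, other pathway genes that passed or whose groups do not overlap, marker genes that passed, and the 5 genes nearest to the member with the smallest p. Other genes with values (Sftpc, Scgb1a1, Pecam1, those nearest to Tbxas1) were chosen after their values were seen, as were the marker genes named that did not pass. Alternatives were median centring, cyclic loess, filters at the 25th percentile and the median, trend and robust eBayes, array weights, the title number as a random (duplicateCorrelation, statmod 1.5.0) or fixed block, the mean of probe sets, the probe set level, and each array left out.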

Additional observations from a re-analysis of the deposited data

How the results depend on the processing

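The count of 2 prostanoid genes called was 1 with cyclic loess (Ptgds), 1 at the level of probe sets (Ptgds) and 0 with the title number as a fixed block, and 0 to 2 with each array left out. It was 2 under the other 8 alternatives, which include the one without Foxa2-/- replicate 1. The differences of Ptgds and Tbxas1 kept their sign under all 16 alternatives run, at 1.46 to 1.92 and 1.37 to 1.71, with adjusted p from 0.00368 to 0.214 and from 0.0118 to 0.313. With each array left out the differences were 1.63 to 1.82 and 1.37 to 1.68. Leaving out an array leaves 5 by construction, the fixed block rests on 3 arrays with 1 control, and the cause of the other lost calls was not tested. No gene of the 18193 passed without control replicate 1, control replicate 2 or Foxa2-/- replicate 3, nor with the fixed block, while 1654, 1801, 2111 and 2121 had an unadjusted p under 0.05. Over all genes limma called 104, against 48 with cyclic loess, 399 with the random block, 607 with array weights, 249 without Foxa2-/- replicate 1, 19 without control replicate 3 and 7 without Foxa2-/- replicate 2. It called 45 probe sets at that level. The 14 other pathway genes had 0 calls under every alternative. Hpgds turned sign without control replicate 1 (-0.0692; 0.408 at most with another array left out) and Ptgr2 with the mean of its probe sets (0.0052), neither of them past the threshold in any setting. Foxa2 passed under 5 alternatives, with -5.12 and an adjusted p of 0.00227 without Foxa2-/- replicate 1. The filters left out Ptgdr2 and the marker gene Prg3 (both), and Ptgdr and the marker gene Epx (the median), so they gave no value there. No paired analysis was possible because the labels give no replicate numbers and the numbers used here only name arrays in accession order. The title number that 3 arrays share was fitted as a block instead. Low signal limits Ptgdr2, Ptgdr, the dimmer probe set of Ptgs2 and marker genes such as Ccr8, Il13, Il4, Prg3, Epx, Mcpt4, Fcer1a and Ms4a2.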
